A study of Mus musculus with 20 samples.

Results

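C2C12 myotubes given agrin together with one of a pair of antibodies that bind MuSK with a single arm, 11-3F6xb12 or 13-3B5xb12, were compared with each other. The comparison used 8 of the 20 total RNA sequencing libraries of the series, 4 per antibody, taken by the treatment named in each library's title and paired by the replicate number in the same titles. C2C12 cells are mouse myoblasts that fuse into myotubes in low serum. Treatment lasted 16 h and began after 5 days of differentiation in all groups. Both groups received 0.1 nM neural agrin, the natural activator, and 7.7 nM of antibody, and the labels describe both antibodies as monovalent and inhibiting for MuSK. The second arm of each antibody is that of b12, the negative control antibody of the human IgG4 class. The other 3 treatments were 7.7 nM b12 alone, 7.7 nM bivalent 13-3B5, which the labels call activating, and 0.1 nM agrin with 7.7 nM b12, which has the agrin of both groups without a MuSK arm. All libraries come from 1 cell line, in culture without nerve, and nothing in the labels says whether equal replicate numbers mark a shared culture or day, so p-values measure the spread between these samples.

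MuSK is the receptor tyrosine kinase that builds the postsynaptic side of the neuromuscular junction. Neural agrin binds Lrp4, the co-receptor, and the complex activates MuSK, which recruits the adaptor Dok7 and leads to clustering of acetylcholine receptors by rapsyn. A bivalent antibody can cross-link MuSK and activate it, whereas a monovalent one can block the interaction with Lrp4 without cross-linking. Of the 5 genes called here, 2 encode small leucine-rich proteoglycans, secreted matrix proteins that bind collagen fibrils and growth factors.

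Total counts were 21774545 to 23343903 per library with 11-3F6xb12 and 18771259 to 22602681 with 13-3B5xb12. All 8 myotube markers, among them Tnnt3, the fast skeletal troponin T, were expressed, and their summed level was 10913 to 13833 CPM (counts per 1e6 of the library total, scaled by the trimmed mean of M-values, TMM) with 11-3F6xb12 and 10285 to 14419.9 CPM with 13-3B5xb12. Hepatocyte markers summed to at most 0.255 CPM in any of the 8 libraries. The 13-3B5xb12 replicate 1 library stood apart: it had counts in 16261 genes, against 17811 to 18009 in the other 3 libraries of that antibody. Its deviations also rose with transcript length (Spearman correlation across genes 0.33). A trend of that size was not particular to it: the correlation was -0.35 in 13-3B5xb12 replicate 4 and 0.34 in b12 control replicate 2. The results were therefore also computed without replicate 1 of both antibodies.

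Few genes differed between the antibodies beyond the spread of the replicates. Of 14605 genes tested with edgeR's quasi-likelihood test with the replicate number as a block, 5 had an adjusted p under 0.05, or 0.0342%. Of these, 4 were higher with 11-3F6xb12 (Ogn, Spon2, Tspan8 and Aspn, 0.0274% of genes) and 1 was lower (Hp, 0.00685%). At an unadjusted p under 0.05 there were 904 genes (6.19%), 508 of them higher and 396 lower with 11-3F6xb12. Without replicate 1 of both antibodies, 6 of 14901 genes were called (0.0403%) and 578 (3.88%) had an unadjusted p under 0.05, 314 of them higher (2.11%) and 264 lower (1.77%), and 4 genes were called in both fits: Ogn, Spon2, Tspan8 and Hp. Aspn was no longer called there, and Cebpd and the pseudogene 2610005L07Rik were called. Without the block, edgeR called 0 genes (0%), with 617 at an unadjusted p under 0.05 (4.22%) and a smallest adjusted p of 0.771. With only replicates 1 and 2 against replicates 3 and 4 as the block, which does not pair by number, 10 genes were called, all 5 among them. The 5 calls also use the other 12 libraries for the block and the spread: in a blocked fit of the 8 libraries alone, Ogn (edgeR adjusted p 1.16e-04) and Spon2 (0.00329) were called and Aspn (0.0607), Hp (0.109) and Tspan8 (0.184) were not. Removing 1 of the 8 libraries at a time moved the count between 2, without 13-3B5xb12 replicate 2, and 10, without 13-3B5xb12 replicate 1 or replicate 4. It was 3 without 11-3F6xb12 replicate 1, 2 or 3 or without 13-3B5xb12 replicate 3, and 9 without 11-3F6xb12 replicate 4.

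In the blocked fit of all 20 libraries, the size of difference that the data leave room for was small for most genes. The intervals below rest on that block, and no unblocked intervals are given here. The median log2 fold change, always given as 11-3F6xb12 minus 13-3B5xb12, was 0.01 over all genes, and 51.8% of genes had a positive one. For 11064 genes, or 75.8%, the 95% interval of the log2 fold change lay within 1 log2 unit in either direction. Among the 8836 genes above 8 CPM, 8363 (94.6%) had an interval within 1.5-fold in either direction, and the median standard error (SE) was 0.10.

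**Figure D1:**
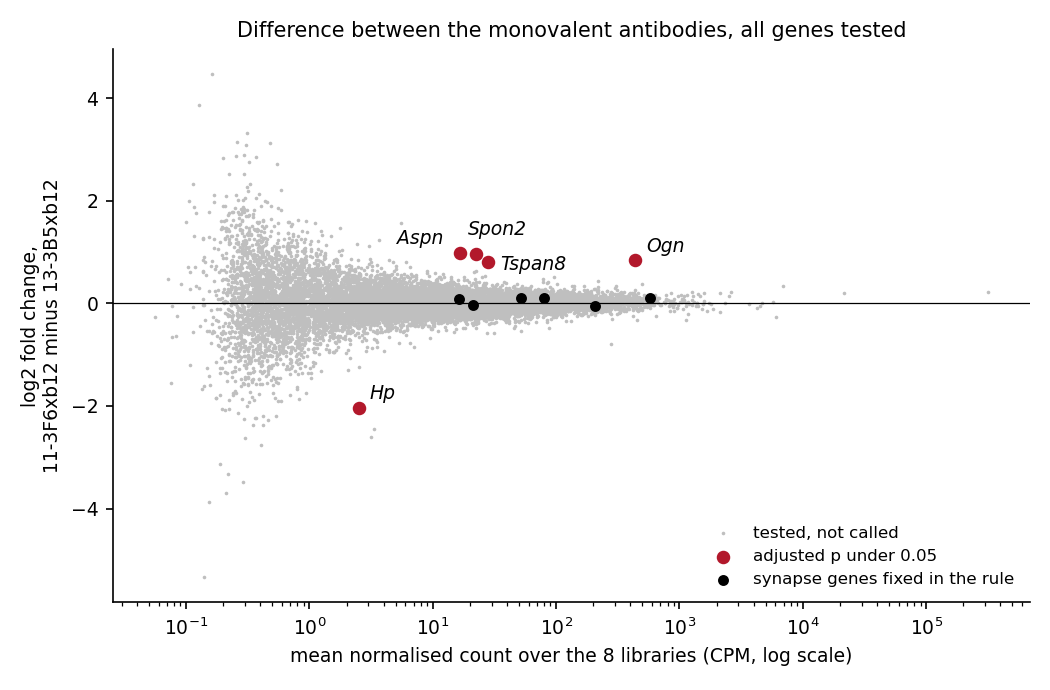
Log2 fold change between agrin with 11-3F6xb12 and agrin with 13-3B5xb12 (vertical axis) against the mean normalised count over the 8 libraries (horizontal log axis, CPM), 1 point per gene tested. The 5 called genes are red, 4 above 0 and Hp below it, and 6 synapse genes (black: Musk, Lrp4, Dok7, Agrn, Chrna1 and Rapsn) lie near 0.

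Ogn, which encodes osteoglycin, was the gene with the smallest p. Its normalised count was 591, 707, 512 and 453 CPM in replicates 1 to 4 with 11-3F6xb12, and 329, 371, 277 and 278 CPM with 13-3B5xb12. Every 11-3F6xb12 library was above every 13-3B5xb12 library, and replicates 1 and 2 were above replicates 3 and 4 with both antibodies. The log2 fold change was 0.84 (SE 0.07, 95% interval 0.69 to 0.99, edgeR adjusted p 1.85e-08), or 1.79-fold, and without replicate 1 it was 0.84 (adjusted p 1.10e-08). Without the block it was 0.85 with an edgeR adjusted p of 0.992. Removal of any 1 of the 8 libraries left Ogn called, with log2 fold changes from 0.80 to 0.89.

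Aspn and Omd lie beside Ogn on the same strand of chromosome 13 in GRCm38, and encode asporin, which binds collagen and transforming growth factor beta, and osteomodulin. Aspn spans 49544443 to 49567565, Omd 49582462 to 49592822 and Ogn 49608046 to 49624501. The normalised count of Aspn was 27.6, 32.1, 17.0 and 12.7 CPM with 11-3F6xb12 and 12.8, 11.2, 9.12 and 9.30 CPM with 13-3B5xb12. The groups overlapped by a narrow margin, with 11-3F6xb12 replicate 4 just under 13-3B5xb12 replicate 1, but each pair had the higher value with 11-3F6xb12. The log2 fold change of Aspn was 0.99 (SE 0.18, edgeR adjusted p 0.0353), and 0.95 without replicate 1 (adjusted p 0.205). The call of Aspn was also lost without 11-3F6xb12 replicate 1 (adjusted p 0.159), 2 (0.206) or 3 (0.213) and without 13-3B5xb12 replicate 1 (0.0629), 2 (0.180) or 3 (0.125), each alone.

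Omd was at 9.42, 11.8, 6.24 and 5.64 CPM with 11-3F6xb12 and at 1.42, 3.39, 2.54 and 3.40 CPM with 13-3B5xb12. These groups did not overlap, and the log2 fold change of 1.57 (SE 0.31) was the largest positive one among genes with a mean of at least 1 CPM and an unadjusted p under 0.05. Its edgeR adjusted p of 0.0589 missed the threshold, and without replicate 1 the log2 fold change was 1.28 (adjusted p 0.211). Of 28 alternative settings Omd was called in 9, among them the DESeq2 Wald test (adjusted p 5.95e-04) and voom with quality weights (0.00453). The lack of overlap is shared with 211 genes that were higher in all 11-3F6xb12 libraries, or 1.44% of those tested. Ecm2, the next gene of the family in this cluster, had a log2 fold change of 0.25 (SE 0.23, edgeR adjusted p 0.904). Nol8, a nucleolar protein gene on the other side of Ogn, had one of 0.10 (SE 0.09, edgeR adjusted p 0.906). Cenpp, a centromere protein gene that overlaps Ogn, Omd, Aspn and Ecm2 on the opposite strand, had a mean of 2.51 CPM over the 8 libraries and a log2 fold change of 0.47 (SE 0.33, edgeR adjusted p 0.860). Whether counting used the strand is not given in the sources used here.

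The 250 bases before the RefSeq start of the 3 neighbours (GRCm38.p6, plus strand) are shown because the 2 called members, Ogn and Aspn, and Omd lie in 1 cluster and had the same direction. Capitals mark matches on either strand to TATAAA, the TATA box core, and CANNTG, the E-box bound by myogenic factors, and touching or overlapping matches run together. A search for TTCNNNGAA, a STAT element, and TGANTCA, an AP-1 element, found no match in these windows. The Ogn window is 13:49607765-49608014, that of Aspn 13:49544193-49544442 and that of Omd 13:49582212-49582461.
Ogn: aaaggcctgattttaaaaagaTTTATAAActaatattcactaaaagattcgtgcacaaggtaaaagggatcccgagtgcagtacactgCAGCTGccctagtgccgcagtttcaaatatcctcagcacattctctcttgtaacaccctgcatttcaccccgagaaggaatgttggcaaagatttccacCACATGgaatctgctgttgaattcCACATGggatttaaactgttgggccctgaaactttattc
Aspn: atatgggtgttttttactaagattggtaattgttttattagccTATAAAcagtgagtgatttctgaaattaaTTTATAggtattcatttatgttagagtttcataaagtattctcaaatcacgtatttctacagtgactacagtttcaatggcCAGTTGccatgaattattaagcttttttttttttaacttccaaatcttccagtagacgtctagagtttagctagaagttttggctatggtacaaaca
Omd: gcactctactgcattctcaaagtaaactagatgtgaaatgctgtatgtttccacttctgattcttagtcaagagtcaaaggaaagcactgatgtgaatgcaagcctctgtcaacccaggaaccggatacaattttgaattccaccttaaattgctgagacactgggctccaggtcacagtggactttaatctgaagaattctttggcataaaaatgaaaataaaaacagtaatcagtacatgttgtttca
Ogn held 2 matches to TATAAA, which overlap each other on opposite strands, and 3 to CANNTG. Aspn held 2 matches to TATAAA and 1 to CANNTG, and Omd had none of the 4 motifs. The window of Tspan8, searched but not printed, also had none of the 4. Of 32851 RefSeq promoter windows of the same length, 12.4% held TATAAA, 66.2% CANNTG, 7.02% TTCNNNGAA and 6.75% TGANTCA. The TATAAA matches began 229 and 227 bases before the RefSeq start in Ogn, and 207 and 178 bases before it in Aspn. A match describes the letters and shows no binding.

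No other small leucine-rich proteoglycan was called. Of 13 genes on the list, 9 passed the filter on low counts, 2 of them rose (Ogn and Aspn) and none fell. At an unadjusted p under 0.05, 5 of the 9 were higher and none was lower, against 3.48% and 2.71% of all genes, and 8 of 9 log2 fold changes were positive with a median of 0.26, counts that include Ogn, Aspn and Omd. The remaining gene, Bgn, which encodes biglycan, had a log2 fold change of -0.10. Lum, which encodes lumican, was at 13.7, 12.1, 8.79 and 9.49 CPM with 11-3F6xb12 and at 6.76, 9.15, 7.21 and 4.93 CPM with 13-3B5xb12, with overlap of 1 library on each side. Its log2 fold change was 0.64 (SE 0.18, edgeR adjusted p 0.371). Dcn, which encodes decorin, had a log2 fold change of 0.20 (SE 0.08, edgeR adjusted p 0.636) at 921 ± 54.2 against 798 ± 90.8 CPM (SD, n = 4 each). Lum and Dcn are also fibroblast markers, a list of which 2 of 7 tested genes, these same ones, were higher at an unadjusted p under 0.05. The summed level of the 8 fibroblast markers was 4255 to 4879 CPM with 11-3F6xb12 and 4230 to 4915 CPM with 13-3B5xb12. In bulk RNA, more cells of a type and more RNA per cell cannot be told apart.

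**Figure D2:**
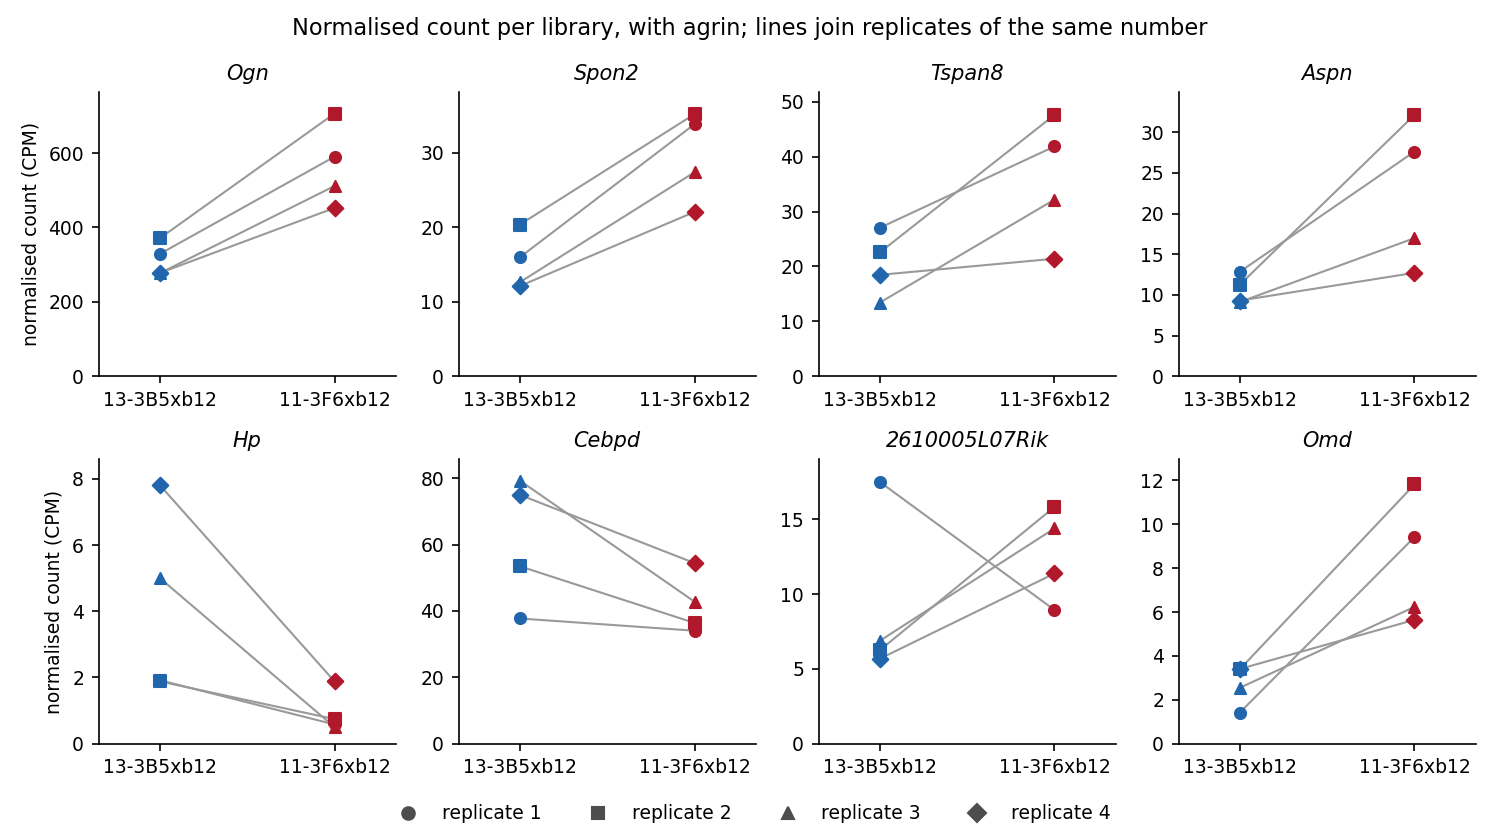
Normalised count (vertical axis, CPM) of 8 genes in each library of agrin with 13-3B5xb12 (blue) and agrin with 11-3F6xb12 (red), with lines joining replicates of the same number. For Ogn, Spon2 and Omd every red point lies above every blue one, for Tspan8 and Aspn each line goes up although the groups overlap, and for 2610005L07Rik replicate 1 runs against the other 3.

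Spon2, which encodes spondin 2, a secreted matrix protein with a role in innate immune recognition, rose with 11-3F6xb12. Its normalised count was 33.8, 35.2, 27.4 and 22.0 CPM with 11-3F6xb12 and 15.9, 20.3, 12.6 and 12.1 CPM with 13-3B5xb12. The groups did not overlap. Spon2 had a log2 fold change of 0.96 (SE 0.11, 95% interval 0.73 to 1.19, edgeR adjusted p 9.75e-06), or 1.95-fold, and 0.92 without replicate 1 (adjusted p 1.72e-04). Removal of any 1 of the 8 libraries left it called. The gene lies on chromosome 5 at 33198184 to 33218455 (GRCm38, minus strand). Of the 18 tested genes on the list of secreted matrix proteins it was the only one called, and the list's median log2 fold change was -0.06. None of 18 collagen chain genes was called, and their median was 0.00.

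Tspan8, which encodes a tetraspanin, a membrane protein that organises other membrane proteins, also rose. It was at 41.9, 47.6, 32.2 and 21.4 CPM with 11-3F6xb12 and at 27.0, 22.5, 13.4 and 18.5 CPM with 13-3B5xb12. The groups overlapped, since 11-3F6xb12 replicate 4 was below 13-3B5xb12 replicates 1 and 2, but each pair was higher with 11-3F6xb12, as for 7.07% of all genes. Tspan8 had a log2 fold change of 0.81 (SE 0.13, edgeR adjusted p 0.00864), and 0.87 without replicate 1 (adjusted p 0.0165). The call was lost without 11-3F6xb12 replicate 2 (adjusted p 0.0603) or 3 (0.0927) and without 13-3B5xb12 replicate 2 (0.136) or 3 (0.0878). Among 17 tested tetraspanin genes, Tspan8 was the only one called and the median log2 fold change was 0.06. Tspan12, a co-receptor component of Norrin signalling, had a log2 fold change of 0.22 (SE 0.08, edgeR adjusted p 0.593).

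Hp, which encodes haptoglobin, the plasma protein that binds free haemoglobin and is made in the acute phase, was the 1 gene that fell with 11-3F6xb12. It was at 0.580, 0.742, 0.501 and 1.88 CPM with 11-3F6xb12, from 12, 15, 11 and 45 counts. With 13-3B5xb12 it was at 1.92, 1.88, 5.00 and 7.81 CPM, from 42, 35, 118 and 179 counts. The highest 11-3F6xb12 library (replicate 4, 1.881 CPM) and the lowest 13-3B5xb12 library (replicate 2, 1.883 CPM) nearly met, and a complete separation downward was seen in 186 genes (1.27%). The log2 fold change was -2.04 (SE 0.38, 95% interval -2.82 to -1.26, edgeR adjusted p 0.0337), or 4.10-fold lower, and -2.13 without replicate 1 (adjusted p 0.0452). The call of Hp was lost without 11-3F6xb12 replicate 1 (adjusted p 0.139), 3 (0.292) or 4 (0.0509) and without 13-3B5xb12 replicate 2 (0.148), 3 (0.0637) or 4 (0.104).

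Most acute phase and chemokine genes had negative log2 fold changes. Of 21 genes on the list, 16 passed the filter, and 1 (Hp) fell and none rose. At an unadjusted p under 0.05, 5 of the 16 were lower and none was higher, against 2.71% and 3.48% of all genes. In 13 of 16 the log2 fold change was negative, where 51.8% of all genes had a positive one, and the median was -0.20, or -0.27 without replicate 1. Il6, which encodes the cytokine that drives the hepatic acute phase, was at 0.367 ± 0.121 against 1.22 ± 0.746 CPM (SD, n = 4 each), with a log2 fold change of -1.67 (SE 0.60, edgeR adjusted p 0.593). Lcn2, which encodes the iron-siderophore binder lipocalin 2, had a log2 fold change of -1.24 (SE 0.45, edgeR adjusted p 0.607), and Saa3, a serum amyloid gene expressed outside the liver, had one of -0.80 (SE 0.29, edgeR adjusted p 0.703). Saa3 ranged from 88.8 to 400.9 CPM with 11-3F6xb12 and from 112 to 494 CPM with 13-3B5xb12, so the spread within each antibody was wider than the difference between them. In the 12 libraries of the other treatments, replicates 1 and 2 differed from replicates 3 and 4 by -3.15 for Lcn2 and by -1.22 for Saa3 on the log2 scale, more than the antibodies did, and the part of this in the list's difference was not tested.

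Cebpd, a transcription factor gene of the acute phase, was at 34.04, 36.4, 42.8 and 54.4 CPM with 11-3F6xb12 and at 37.7, 53.5, 79.3 and 75.0 CPM with 13-3B5xb12. Each pair was lower with 11-3F6xb12, as for 6.09% of all genes, by the least in replicate 1. Over all libraries Cebpd had a log2 fold change of -0.53 (SE 0.13, edgeR adjusted p 0.267), which became -0.63 (adjusted p 0.00322) without replicate 1. Leaving out 13-3B5xb12 replicate 1 alone gave -0.68 (adjusted p 2.93e-04). With all 20 libraries kept, Cebpd was called by the DESeq2 Wald test (adjusted p 0.0209) and voom with quality weights (6.27e-04). It was also called by edgeR without a filter on low counts (1.44e-05). It was not called by edgeR with DESeq2 size factors (0.229) or a correction for transcript length (0.106). Socs3, the feedback inhibitor of cytokine signalling through STAT3, was named after its values were seen, and had a log2 fold change of -0.48 (SE 0.12, edgeR adjusted p 0.267). Sbno2, a transcriptional co-regulator induced by the same pathway, was at 69.3, 67.4, 77.2 and 79.0 CPM against 81.3, 91.0, 108 and 100.2 CPM. Its groups did not overlap, and its log2 fold change of -0.37 (SE 0.08) had an edgeR adjusted p of 0.0589, or 0.0511 without replicate 1.

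**Figure D3:**
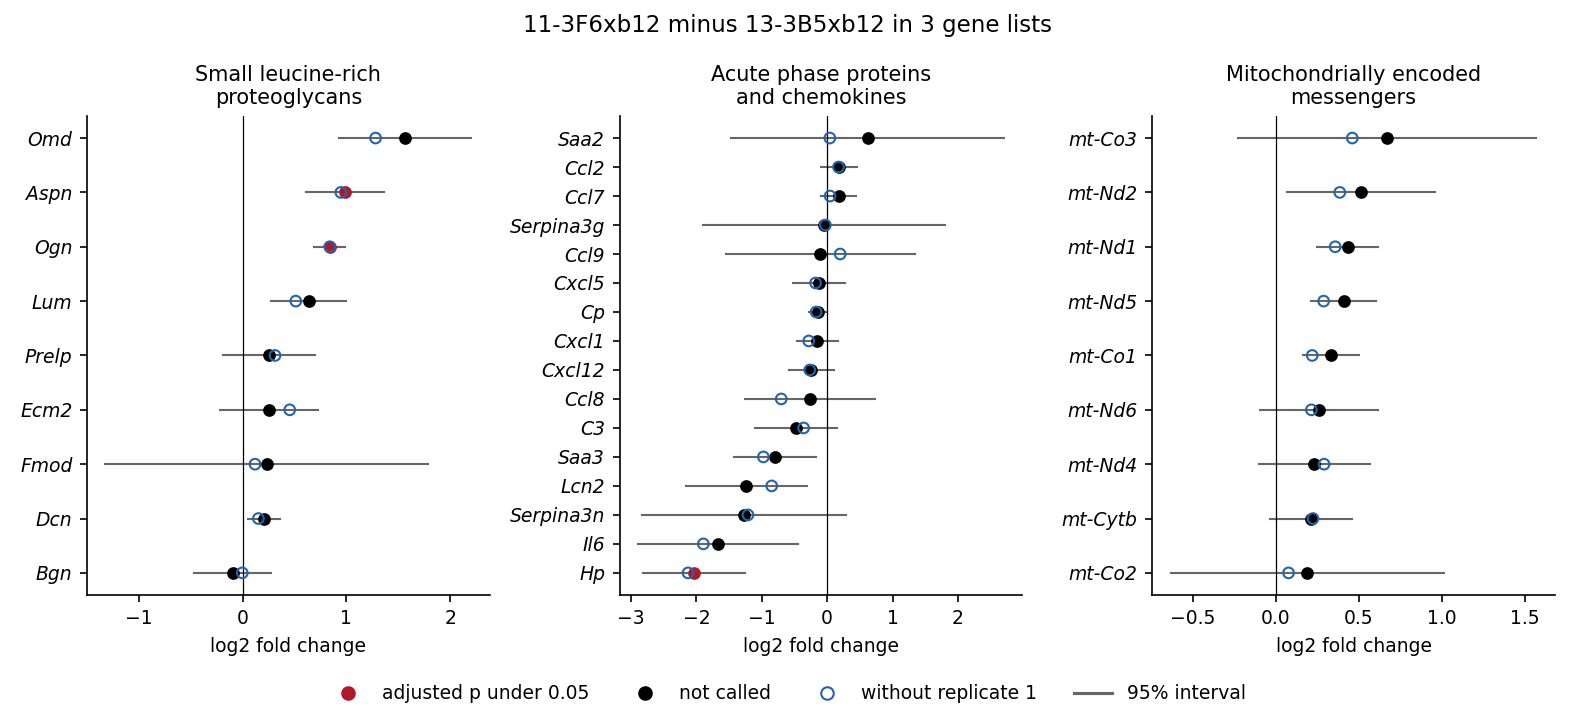
Log2 fold change, 11-3F6xb12 minus 13-3B5xb12 (horizontal axis), of each tested gene of 3 lists, with its 95% interval, and the value without replicate 1 as an open circle. Of the proteoglycans 8 of 9 lie right of 0 and of the acute phase and chemokine genes 13 of 16 lie left of it. All 9 mitochondrial messengers lie right of 0, without a call at the main edgeR settings.

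Further genes with the smallest p-values among those with 1 direction in all 4 pairs did not pass the threshold. Gulp1, an adaptor for engulfment of dying cells, was at 31.6 ± 1.96 against 21.9 ± 2.06 CPM (SD, n = 4 each) without overlap, with a log2 fold change of 0.53 (SE 0.11, edgeR adjusted p 0.0705). Myl9, a regulatory light chain of smooth muscle and non-muscle myosin, was at 29.3 ± 3.51 against 20.4 ± 0.602 CPM without overlap, with a log2 fold change of 0.51 (SE 0.11, edgeR adjusted p 0.0818). Lower with 11-3F6xb12 were Gda, the guanine deaminase gene (-0.59, SE 0.12, edgeR adjusted p 0.0589), and Pi15, a peptidase inhibitor gene (-0.58, SE 0.12, adjusted p 0.0589). Slc16a1, the gene of lactate transporter MCT1, had a log2 fold change of -0.31 (SE 0.07, edgeR adjusted p 0.0656), and the zinc transporter gene Slc39a14 had one of -0.34 (SE 0.08, adjusted p 0.103). The mitotic kinase gene Nek6 had a log2 fold change of -0.56 (SE 0.13, edgeR adjusted p 0.103), and Slpi, which encodes a secreted inhibitor of leukocyte proteases, had one of -0.86 (SE 0.21, adjusted p 0.187).

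For each of the 5 called genes the level with agrin and b12 lay between those with the 2 antibodies. No test is given for this order, because the genes were chosen by the difference between the antibodies. Ogn was at 565 ± 110 CPM with 11-3F6xb12, 379 ± 82.8 CPM with agrin and b12, and 314 ± 45.3 CPM with 13-3B5xb12 (SD, n = 4 each). In the same fit, the log2 fold change from agrin with b12 was 0.58 (SE 0.07) for 11-3F6xb12 and -0.26 (SE 0.07) for 13-3B5xb12, 2 values that share the agrin libraries. On that scale Spon2 had 0.52 (SE 0.11) and -0.45 (SE 0.11), Tspan8 had 0.25 (SE 0.13) and -0.55 (SE 0.13), and Aspn had 0.39 (SE 0.18) and -0.60 (SE 0.18). Hp had -1.51 (SE 0.38) and 0.52 (SE 0.34). The agrin level was thus nearer to 13-3B5xb12 for Ogn and Hp and to 11-3F6xb12 for Tspan8 and Aspn, and nearly midway for Spon2.

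In order of mean level, Ogn followed 11-3F6xb12 with bivalent 13-3B5 at 405 ± 80.5 CPM, agrin with b12, the b12 control at 364 ± 75.7 CPM and 13-3B5xb12. Neighbours among the lower 4 means differed by less than the larger of their SDs, a spread that includes the difference between replicates 1 and 2 and replicates 3 and 4. Within replicate numbers 13-3B5xb12 was below the b12 control in 4 of 4. The mean of Hp was lowest with 11-3F6xb12 at 0.926 ± 0.645 CPM and lay between 3.06 and 4.15 CPM in the other 4 treatments, where single libraries ranged from 0.704 to 7.81 CPM.

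**Figure D4:**
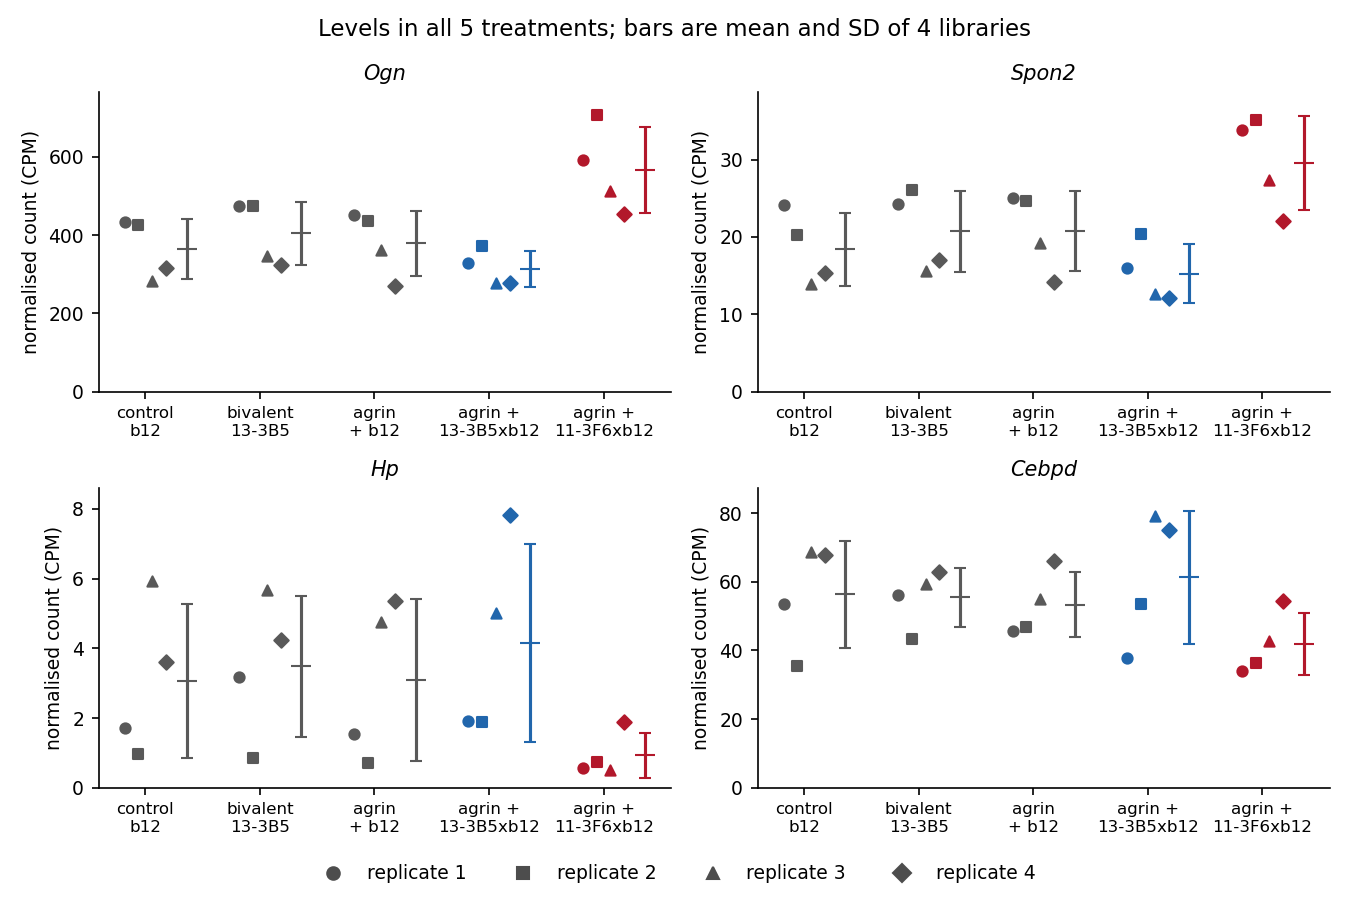
Normalised count (vertical axis, CPM) of Ogn, Spon2, Hp and Cebpd in the 20 libraries by treatment, with the mean and SD of 4 libraries beside the points. The 11-3F6xb12 libraries (red) have the highest mean for Ogn and Spon2 and the lowest for Hp and Cebpd, and in each grey group replicates 1 and 2 lie above replicates 3 and 4 for Ogn.

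The genes of the receptor complex itself did not differ beyond the spread of the replicates. Musk was at 50.6, 51.9, 59.8 and 53.3 CPM with 11-3F6xb12 and at 47.5, 49.9, 52.1 and 50.7 CPM with 13-3B5xb12. It was higher in 4 of 4 pairs with overlapping groups, and its log2 fold change was 0.11 (SE 0.08, 95% interval -0.07 to 0.28, edgeR adjusted p 0.881). Lrp4 had a log2 fold change of -0.05 (SE 0.07, interval -0.18 to 0.09), Dok7 one of -0.03 (SE 0.12, interval -0.28 to 0.21) and Agrn one of 0.09 (SE 0.15, interval -0.22 to 0.39), with edgeR adjusted p-values of 0.942, 0.977 and 0.953. Agrn encodes the muscle's own agrin as well as the neural form, and gene counts do not separate them. The signs of Lrp4, Dok7 and Agrn changed when single libraries were removed.

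The acetylcholine receptor subunit genes were tested as the products that MuSK signalling brings together. Chrna1, the alpha subunit gene, was at 616, 621, 567 and 568 CPM against 529, 562, 570.1 and 545 CPM, with a log2 fold change of 0.11 (SE 0.06, interval -0.01 to 0.22, edgeR adjusted p 0.823). Chrnb1 had 0.13 (SE 0.07, interval -0.01 to 0.26), Chrnd 0.11 (SE 0.07, interval -0.02 to 0.25), Chrng, the fetal subunit gene, 0.07 (SE 0.13, interval -0.21 to 0.34) and Chrne, the adult subunit gene, 0.19 (SE 0.28, interval -0.37 to 0.76). Rapsn, the gene of the receptor's clustering protein, had 0.11 (SE 0.07, interval -0.03 to 0.24). None was called, and of the 6 intervals only that of Chrne reaches beyond 0.34 log2 units. Of 17 genes of the receptor and its clustering none was called, 1 was higher and 1 lower at an unadjusted p under 0.05, and the median was 0.05. Likewise none was called among 10 genes of synaptic transcription and neuregulin signalling (median -0.05), 14 of the synaptic basal lamina (-0.08) and 12 of the utrophin and dystrophin complex (-0.03).

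Mitochondrially encoded messengers lay above 0 without a call at the main edgeR settings. All 9 tested members had positive log2 fold changes with a median of 0.33, or 0.29 without replicate 1, and 4 of 9 were higher at an unadjusted p under 0.05, against 3.48% of all genes higher at that p and 51.8% with a positive log2 fold change. mt-Nd1, a subunit gene of respiratory complex I, was at 239, 264, 242 and 257 CPM with 11-3F6xb12 and at 150.1, 163, 238 and 206 CPM with 13-3B5xb12. The groups did not overlap, but replicate 3 differed by little, and the log2 fold change was 0.43 (SE 0.09, edgeR adjusted p 0.0656), or 0.36 without replicate 1 (adjusted p 0.472). mt-Nd5 had 0.41 (SE 0.10), mt-Co1 had 0.33 (SE 0.08) and mt-Nd2 had 0.51 (SE 0.22). Of 28 alternative settings, mt-Nd1 was called in 7, mt-Nd5 and mt-Co1 in 2 each and mt-Nd2 in 0. All mitochondrial genes, which include the ribosomal RNAs, held 35.5 ± 4.09% of counts with 11-3F6xb12 and 32.2 ± 2.61% with 13-3B5xb12 (SD, n = 4 each), higher in 4 of 4 pairs. A two-sided exact permutation test of 4 against 4 libraries, which does not use the pairs, gave p 0.229. Adjusted over 5 library measures it was 0.286, where 0.0286 is the smallest p possible. The part of the mitochondrial share in the difference of the messengers was not tested.

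Muscle genes and signalling lists showed no called gene. The counts that follow are at an unadjusted p under 0.05, where 3.48% of all genes were higher and 2.71% lower. Of 26 sarcomere genes 3 were higher and none was lower, with a median of 0.08: Actc1, cardiac actin (0.20, SE 0.08), Tnnt3 (0.18, SE 0.08) and Myl1, a fast myosin light chain (0.20, SE 0.09). Of 12 myogenic factor genes 2 were higher and none lower, and of 7 markers of undifferentiated myoblasts 3 were higher, among them Cd34 (0.22, SE 0.09) and Myf5 (0.35, SE 0.17), with summed levels of 1931 to 2277 and 2030.0 to 2268 CPM. Without replicate 1 these counts were 1 of 26, 0 of 12 and 1 of 7, and the log2 fold changes of Tnnt3 and Myl1 were both 0.08. Of 18 immediate early genes 2 were lower, the AP-1 subunit genes Fosl2 (-0.31, SE 0.11) and Junb (-0.16, SE 0.06), and none was higher. Of 18 genes of BMP and TGF-beta signalling 2 were higher, Fst, which encodes the activin antagonist follistatin (0.29, SE 0.08), and Bmp4 (0.40, SE 0.16), and 1 was lower, the BMP antagonist gene Grem1 (-0.21, SE 0.10). The medians of the ERK feedback, Wnt, cell cycle, cholesterol synthesis, interferon and denervation lists lay between -0.04 and 0.14.

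The called genes also differed by replicate number in the 12 libraries of the other 3 treatments. Those 12 enter the fit of the antibody difference only through the block and the spread. In these libraries, the log2 difference of replicates 1 and 2 minus replicates 3 and 4 had the sign of the antibody difference for 5 of 5 called genes. It was 0.50 for Ogn, 0.60 for Spon2, 0.89 for Tspan8, 0.87 for Aspn and -1.75 for Hp, and -0.44 for Cebpd, while it was -0.40 for mt-Nd1, against that gene's antibody difference. Of the 881 genes in both fits with an unadjusted p under 0.05 between the antibodies, 572 had the same sign in both (64.9%), compared with 55.1% of 14006 genes. Over these 14006 genes the 2 log2 differences correlated only weakly (Pearson 0.09, Spearman 0.12). The first principal component of the 20 libraries, which separates these replicates, was lower with 11-3F6xb12 than with 13-3B5xb12 in each pair, at -13.8 against -10.1, -14.3 against -7.36, 8.16 against 14.3 and 9.92 against 10.4. What the replicate pairs share is not given in the labels, and its part in the antibody difference was not tested.

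Within each of these replicate pairs the antibody difference of the called genes had the same sign. This follows from the choice of genes: the 5 were called on these libraries, and each had 1 direction in 4 of 4 pairs. The fits below therefore describe size and spread and are no separate evidence. In fits of replicates 1 and 2 alone and of replicates 3 and 4 alone, the log2 fold change of Ogn was 0.88 (edgeR adjusted p 0.00653) and 0.79 (2.71e-06). That of Spon2 was 0.92 (adjusted p 0.0858) and 1.00 (0.00421), and that of Tspan8 0.84 (0.0936) and 0.77 (0.204). Aspn had 1.29 (adjusted p 0.0137) and 0.68 (0.875), and Hp had -1.50 (0.555) and -2.42 (0.00215). Ogn was thus the 1 gene of the 5 that was called in both.

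**Figure D5:**
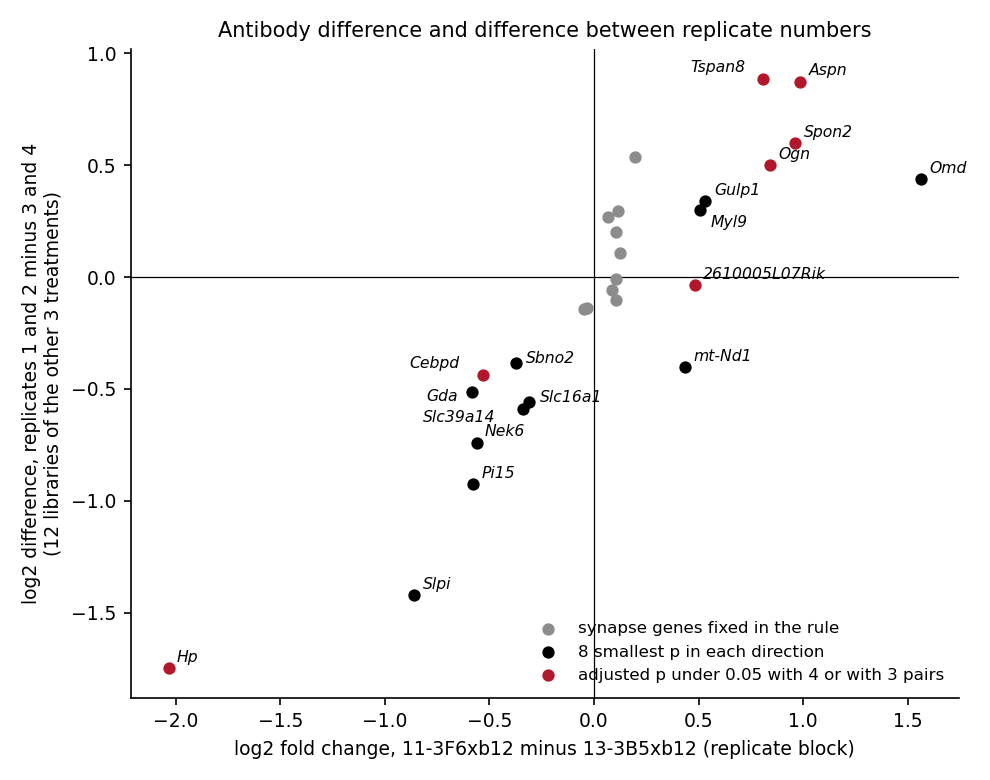
Log2 fold change between the antibodies, from the blocked fit (horizontal axis), against a log2 difference between replicates (vertical axis). The latter is replicates 1 and 2 minus replicates 3 and 4 in the 12 libraries of the other 3 treatments. Points are genes called with or without replicate 1, those chosen by smallest p per direction, and synapse genes. All 5 genes called over 4 pairs (Ogn, Spon2, Tspan8, Aspn and Hp) lie in the quadrants of equal sign. Outside them lie mt-Nd1, 2610005L07Rik, Musk, Agrn and Chrna1. The other named genes are not drawn and had equal or opposite signs, opposite for Pcdh9, mt-Nd2, Myf5 and Cd34 among others. The 12 libraries of the vertical axis also enter the horizontal fit through the block and the spread.

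With the main edgeR settings, 2610005L07Rik, like Cebpd, was called only when replicate 1 of 13-3B5xb12 was left out. This gene on chromosome 8 (20385782 to 20424814, GRCm38, minus strand) is annotated as a transcribed unprocessed pseudogene, so reads shared with related copies make its level uncertain. It was at 8.93, 15.8, 14.4 and 11.4 CPM with 11-3F6xb12 and at 17.5, 6.24, 6.87 and 5.67 CPM with 13-3B5xb12. The log2 fold change of 2610005L07Rik was 0.48 (SE 0.37, edgeR adjusted p 0.879) over 4 pairs and 1.14 (adjusted p 0.0251) without replicate 1, where the 3 remaining libraries per antibody did not overlap. Other large differences came with wide errors: A430078I02Rik, an antisense RNA gene, had 1.56 (SE 0.56, edgeR adjusted p 0.593), Pcdh9, a protocadherin gene, 1.46 (SE 0.45, adjusted p 0.484) and Nphp4, a ciliary protein gene, -1.46 (SE 0.54, adjusted p 0.631).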

How the data were processed

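RNA was extracted with the miRNAeasy kit and sequenced from ribosome-depleted stranded total RNA libraries, per the labels' protocols. The deposited table holds whole-number read counts per gene for 26722 genes and 20 libraries, which the authors did not normalize, as the values themselves show. Per the submitters' processing notes, Trim Galore 0.6.6, cutadapt 2.10, STAR 2.7.6a, HTSeq 0.12.4 and DESeq2 1.32.0 were used with GRCm38; the annotation, use of strand and treatment of duplicates are not given in the sources used here, so overlapping genes are uncertain. Gene positions are from GENCODE release M21 (26667 IDs matched). Promoters are from RefSeq (GRCm38.p6), with entries for Ogn, Aspn and Omd shown and that of Tspan8 searched only.

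The analysis used edgeR 4.0.16 in R 4.3.3. The filterByExpr filter was applied (minimum count 10, total 15), libraries were TMM-scaled, and 1 robust quasi-likelihood model with treatment and replicate number was fitted to all 20 libraries (12 residual degrees of freedom). The contrast was tested two-sided with Benjamini-Hochberg adjustment over all genes at 0.05. SEs are fold change over the square root of F, and intervals cover 95%. At most 3 counts, 0.125 to 0.161 CPM, is the floor of detection. This floor covers counting error only. Replicates of an antibody differed beyond counting error (chi-square per gene at least 5.17), which does not show separate cultures. Between replicates 1 and 2 the value was 5.17 with 11-3F6xb12 and 21.4 with 13-3B5xb12. Between replicates 3 and 4 it was 8.08 and 6.77. Between replicates 1 or 2 and replicates 3 or 4 it was 18.1 to 46.7.

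The block follows the titles' replicate numbers. Deviations of same-numbered libraries of the 2 antibodies correlated at 0.09, 0.19, 0.23 and 0.05 over 11149 genes, not all above 0.1. Unlike-numbered ones correlated at 0.13 and 0.22 within replicates 1 and 2, and at 0.23 and 0.19 within replicates 3 and 4. Between replicates 1 or 2 and replicates 3 or 4 the values were -0.25 to -0.06. The numbers are therefore not shown to pair the libraries 1 to 1, and unblocked counts of called genes are given. Genes named were those called with or without replicate 1, the 8 smallest p per direction with 4 of 4 pairs, the 5 largest changes above 1 CPM, synapse genes, and up to 4 genes per list; Socs3, Cenpp, Ecm2 and Nol8 were added after their values were seen, and the lists' other members appear in counts. The comparison, gene lists and tests were chosen with earlier results of these data known. Alternatives were the model without the block, DESeq2 1.42.0, voom in limma 3.58.1, other filters and scalings, a correction for transcript length, only the 8 libraries, and removal of replicates or single libraries.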

Additional observations from a re-analysis of the deposited data

Results flagged for a closer look

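In 24 groups of 4 libraries examined for 1 extreme library, of which chance gives 1.2, 2 had one, and both were in agrin with 13-3B5xb12 replicate 1. The normalised count of 2610005L07Rik was 17.5 CPM there and 5.67 to 6.87 CPM in the other 3 libraries of that antibody, a gap of 0.899 of the group's range. The number of genes with counts was 16261 there and 17811 to 18009 in the others, a gap of 0.887 of the range. 2610005L07Rik was examined because it was called without replicate 1. The number of genes with counts was already a reason for leaving that replicate out. The number given by chance is therefore no measure for these 2.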

How the results depend on the processing

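Without the replicate block 0 genes were called over 4 pairs and 0 without replicate 1. Against 5 called, the block of replicates 1 and 2 against 3 and 4 gave 10 genes, the DESeq2 Wald test 29, voom with quality weights 14, no filter on low counts 65 and the length correction 12, each with all 5 among them. With only the 8 libraries the count was 2 with the block and 0 without it. Alternatives added after seeing the data gave 16 without control replicate 2 and 13-3B5xb12 replicate 1, 8 without agrin with b12 replicate 3, 2 in replicates 1 and 2 and 9 in replicates 3 and 4. Removing replicates or single libraries gave 2 to 12. Against 6 called without replicate 1, the counts were 16 (only those libraries, with the block), 2 (without it), 11 (DESeq2), 19 (voom), 27 (no filter), 11 (length correction) and 1 to 5 (a further replicate removed). The cause of these moves was not tested. Of 54 genes followed, 48 kept their direction in all 28 settings. The 6 that turned were 2610005L07Rik (-0.0068 in replicates 1 and 2 only) and 5 synapse genes. With replicates or single libraries removed, Lrp4 ranged from -0.11 to 0.0074, Agrn from -0.075 to 0.18, Dok7 from -0.14 to 0.070, Chrne from -0.0081 to 0.40 and Chrng from -0.029 to 0.12. Lrp4 was at 0.0019 without control replicate 2 and 13-3B5xb12 replicate 1 and at 0.043 in replicates 3 and 4, Chrne at -0.14 in replicates 3 and 4, and Agrn at -0.15 in replicates 1 and 2. Depth limits low genes: Hp rests on 11 to 179 counts per library, with an interval from -2.82 to -1.26.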
